A study of Mus musculus with 3 samples.

Results

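The NF-kB subunit genes of the mouse are Nfkb1, Nfkb2, Rel, Rela and Relb. They were chosen by gene symbol, and all 5 were found among 55536 annotated gene entries and among the 13434 genes tested. Their 36 annotated isoforms were found in both transcript quantifications of each library. The RNA came from the chromatin of primary macrophages grown from bone marrow of C57BL/6J mice. The cells had received lipid A at 100 ng/ml for 90 minutes, and ribosomal RNA was removed before total RNA sequencing. There was 1 group of 3 biological replicates. The RNA input was 1 µg for replicate 1, 250 ng for replicate 2 and 500 ng for replicate 3, and input and replicate cannot be told apart. With no unstimulated cells analysed here, every value is a level after lipid A and not a change caused by it. Age and sex of the mice were not collected, per the labels.

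NF-kB proteins bind DNA as dimers and share an amino-terminal Rel homology region. Nfkb1 encodes p105 and Nfkb2 encodes p100, precursors that the proteasome trims to the DNA-binding proteins p50 and p52 and whose carboxy-terminal ankyrin repeats hold dimers in the cytoplasm as IkB proteins do. RelA, RelB and c-Rel carry transactivation domains. In macrophages, lipid A acts through Toll-like receptor 4 and the IKK complex, which marks IkB proteins for destruction and lets mainly RelA and c-Rel dimers enter the nucleus. RelB with p52 is the best known dimer of the slower non-canonical pathway. RNA on chromatin holds transcripts that are still being made and nuclear RNAs that are kept there, so introns not yet removed add to the signal.

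Expected counts summed to 11277198, 24965749 and 19794886 in replicates 1, 2 and 3, of which the 5 genes took 31512, 48711 and 46295. The donor label is shared by the 3 libraries, and p-values therefore measure no more than the spread between them, which may be technical. Replicate 1 stood apart from the other two: its TMM factor was 1.44, against 0.726 and 0.956, and the median share of retained-intron isoforms over genes was 52.6% in it, against 42.7% and 41.7%. Of 15 macrophage markers, 11 were above the bound defined below, beside 21.3% of all genes tested, and none was below it. The summed TPM of the 15 lay between 832 and 1352. The neutrophil markers summed to between 21.1 and 31.5 TPM, nearly all of it Csf3r (19.5 to 30.9 TPM), while Ly6g, Elane and Mpo were at 0. The T and NK cell markers summed to between 10.4 and 13.5 TPM, most of it Il7r (8.61 to 10.3 TPM), while Cd3e and Cd8a were at 0. The 5 other marker lists, for B cells, dendritic cells, mast cells, red cells and platelets, and stroma, summed to at most 8.45 TPM in any library. In bulk RNA, fewer cells of a type and less RNA per cell cannot be told apart.

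All 5 subunit genes lay above the typical expressed protein-coding gene of the same libraries. Each gene's level is its log2(TPM + 1) after subtraction of the library's median over 10530 expressed protein-coding genes (5.5, 3.7 and 4.93 TPM in replicates 1, 2 and 3). A gene was called above or below where limma's treat test put that level past 1 log2 unit at an adjusted p of 0.05. By this rule 5 of 5 subunit genes were above, beside 21.3% of all genes tested, and another 21.3% of all genes were below. The median level over the 5 genes was 3.52, against -0.21 over all genes tested. With the median of all genes as the reference, the calls over all genes were 3196 above and 2084 below, beside 2864 and 2859 here, and the 5 subunit genes stayed above. Where a mean count of 100 was required, 3 of 5 were above, beside 17.8% of 7399 genes, and Rel and Rela had no call. The order by mean level was Nfkb1 (6.01 ± 0.02), Nfkb2 (5.24 ± 0.61), Relb (3.52 ± 0.56), Rel (2.66 ± 0.68) and Rela (2.39 ± 0.36; SD, n = 3 each). Ranked by mean level among the protein-coding genes tested, they stood at places 33, 100, 574, 1162 and 1441. Of the TPM summed over the 5 genes, Nfkb1 took 51.1 ± 7.4% and Nfkb2 30.3 ± 8.3%, so the 2 precursor genes made up most of the family's TPM. Relb took 9.07 ± 2.26%, Rel 5.48 ± 3.53% and Rela 4.01 ± 0.48%. These shares depend on the annotation, since TPM holds only reads assigned to annotated isoforms. Nfkb1 has 4 retained-intron isoforms, whereas the 1 isoform of Rel holds 0 intronic bases. Reads from Rel introns thus add nothing to its TPM, and how far this moved the shares was not tested.

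**Figure D1:**
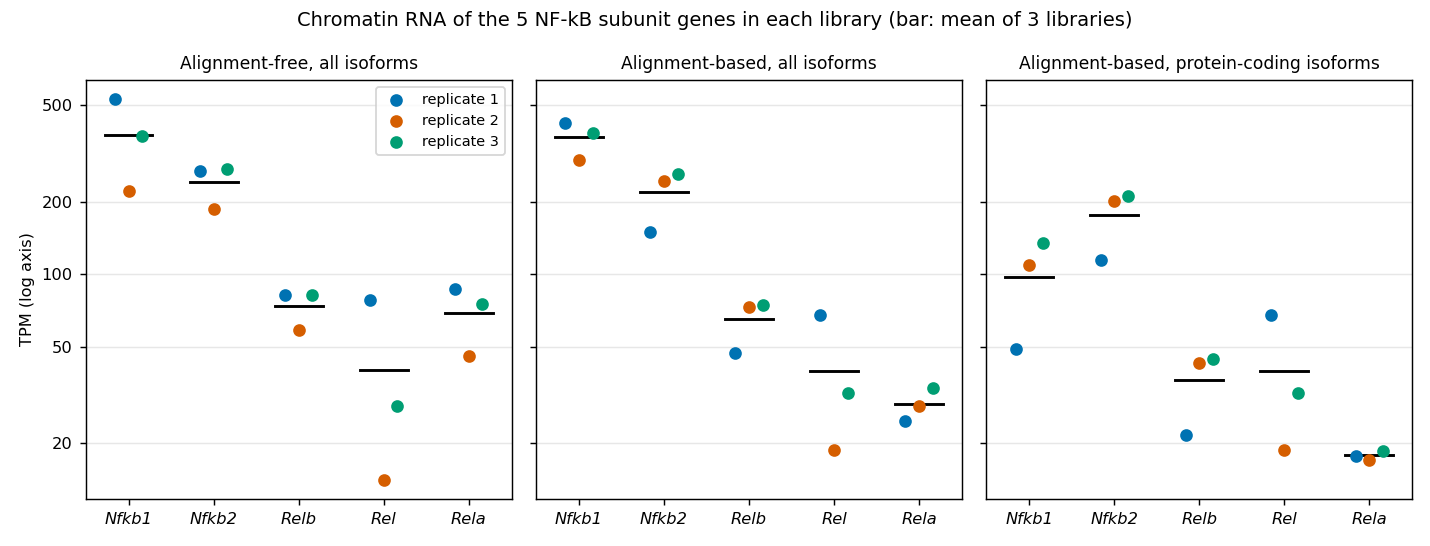
TPM of the 5 subunit genes on a log axis, 1 point per library and a bar at the mean of 3 libraries, in the alignment-free quantification (left), the alignment-based quantification (middle) and the protein-coding isoforms of the alignment-based quantification (right). Nfkb1 had the highest mean over all isoforms (376 TPM alignment-free and 369 TPM alignment-based), whereas Nfkb2 was highest over protein-coding isoforms (176 TPM).

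Nfkb1 (ENSMUSG00000028163.17, chr3:135584655-135691547, minus strand, mm10) had the highest TPM of the family over all isoforms. Its TPM was 424 in replicate 1, 298 in replicate 2 and 384 in replicate 3 (369 ± 64, SD, n = 3). Relative to each library's median the 3 values were nearly equal, at 6.03, 5.99 and 6.02 log2 units, and the mean level was called above the bound (limma treat, adjusted p = 5.36e-06). Most of this RNA was assigned to isoforms annotated as retained intron. That label is a class of annotation, and from 7.46% (Nfkb1-202) to 96.0% (Nfkb1-208) of an isoform's bases were intronic. The 4 retained-intron isoforms of Nfkb1 took 86.6% of its TPM in replicate 1, 61.4% in replicate 2 and 63.3% in replicate 3. The 3 protein-coding isoforms took 11.6%, 36.7% and 35.2%. Replicate 1 was thus higher in retained-intron isoforms and lower in coding ones than both others, while the sum over isoforms kept its distance from the median. The isoform Nfkb1-206, which codes for p105 in full over 971 codons, had 49.8, 59.2 and 88.5 TPM in replicates 1, 2 and 3 in the alignment-free quantification. In the alignment-based quantification it had 26.3 TPM in replicate 1, 82.6 TPM in replicate 2 and 101 TPM in replicate 3, a wider gap between replicate 1 and the others. In the alignment-based quantification the other isoform with the same reading frame, Nfkb1-201, which starts at the gene's upstream end, was listed at 0, 0 and 0.14 TPM. Nfkb1-203, whose annotated start is incomplete, begins behind intron 12 with 533 annotated codons and lacks exon 24 of Nfkb1-201. It had 22.7, 26.8 and 34.1 TPM alignment-based and 10.8, 6.46 and 12.4 TPM alignment-free. The processed transcript Nfkb1-205 had 59.0, 25.4 and 57.5 TPM alignment-free and 7.67, 5.43 and 5.31 TPM alignment-based. The values of these isoforms thus depended on the quantification.

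The 4 retained-intron isoforms of Nfkb1 read mainly into introns 7, 8, 12 and 16, numbered along Nfkb1-201. The boundaries they cross into these introns are printed here as annotated. Reads over the boundaries were not counted, and the TPM values rest on reads assigned to whole isoforms. Nfkb1-210 also holds 8 bases of intron 15, and that boundary is not printed. Nfkb1-204 runs from the gene's upstream end through the exons of the DNA-binding part and stops 1824 bases into intron 12, and 53.9% of its bases are intronic. By mean TPM it was the most abundant isoform of the whole family (129 ± 40, SD, n = 3), with 171 TPM in replicate 1, 91.6 TPM in replicate 2 and 124 TPM in replicate 3. Nfkb1-202 begins 188 bases before the end of the same intron and goes on to the gene's downstream end, and had 54.3, 43.6 and 54.4 TPM. Nfkb1-208 is a single exon with 96.0% intronic bases, mostly of intron 7, and had 64.5, 27.3 and 36.8 TPM. Nfkb1-210 is a single exon with 92.9% intronic bases, mostly of intron 16, and had 77.1, 20.5 and 27.2 TPM. Summed, these 2 single-exon isoforms had 142 TPM in replicate 1, against 47.8 TPM in replicate 2 and 64.1 TPM in replicate 3, a range of 2.96-fold. Each sequence below is from GENCODE M21 transcripts on GRCm38, minus strand, and holds 30 exon bases and 30 intron bases, with the intron's terminal letters, GT at its start or AG at its end, in capitals. The intervals are chr3:135612384-135612443, chr3:135608266-135608325, chr3:135618938-135618997, chr3:135618774-135618833 and chr3:135603680-135603739.
Nfkb1-204, exon 12 into intron 12: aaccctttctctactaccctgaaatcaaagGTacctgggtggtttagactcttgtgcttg
Nfkb1-202, intron 12 into exon 13: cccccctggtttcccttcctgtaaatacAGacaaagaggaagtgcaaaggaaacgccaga
Nfkb1-208, intron 7 into exon 8: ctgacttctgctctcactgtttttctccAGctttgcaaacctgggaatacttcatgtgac
Nfkb1-208, exon 8 into intron 8: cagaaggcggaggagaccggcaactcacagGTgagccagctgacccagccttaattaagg
Nfkb1-210, exon 16 into intron 16: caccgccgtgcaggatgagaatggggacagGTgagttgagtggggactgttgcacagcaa
All 5 boundaries carried the common splice letters. Splicing removes these boundaries from the p105 mRNA, and the retained-intron isoforms keep them.

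**Figure D2:**
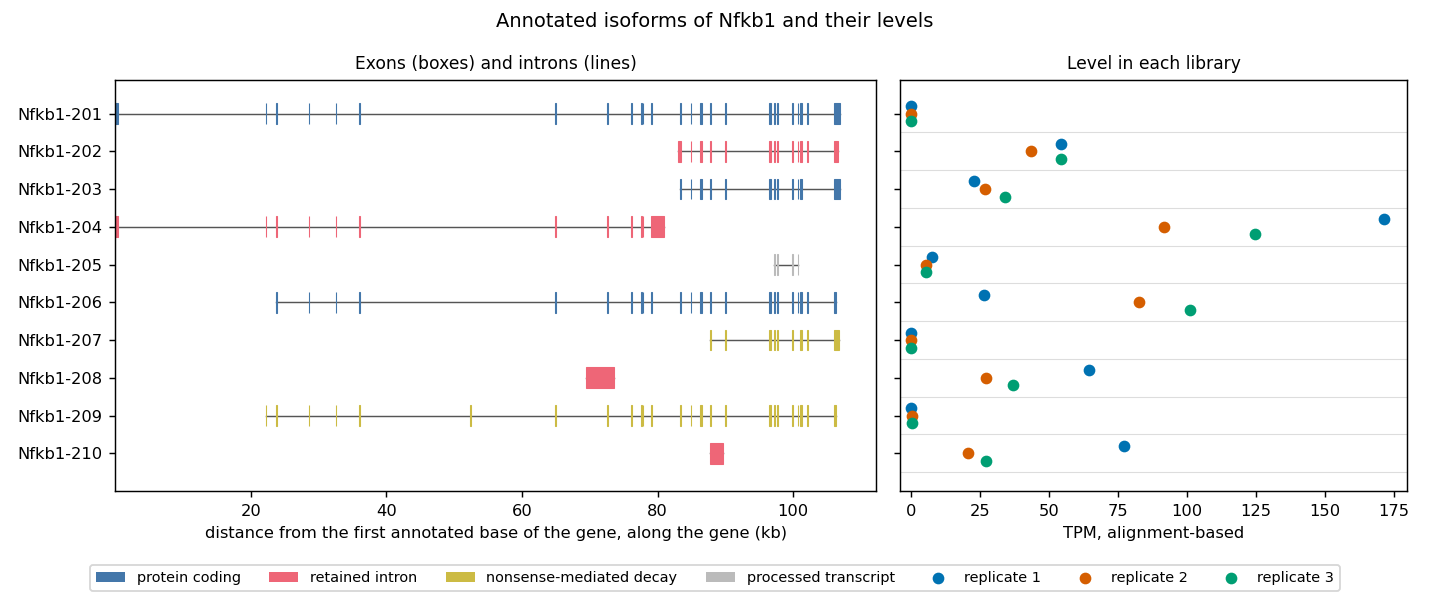
Annotated isoforms of Nfkb1, with exons as boxes coloured by isoform type against the distance in kb along the gene (left), and the alignment-based TPM of each isoform in each of the 3 libraries (right). Nfkb1-204 is highest in every library (91.6 to 171 TPM), and replicate 1 is high in the intronic isoforms Nfkb1-208 and Nfkb1-210 and low in the coding isoform Nfkb1-206 (26.3 TPM, against 82.6 and 101 TPM).

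A further unspliced locus lies inside Nfkb1 on the same strand, Gm43430, which is annotated as TEC, a class of unspliced loci still to be tested by experiment, at chr3:135650670-135654566 and shares all 3897 of its bases with the gene's span. It had 81.0 TPM in replicate 1, 24.7 TPM in replicate 2 and 29.1 TPM in replicate 3, high in the same library as Nfkb1-208 and Nfkb1-210. Its reads are not part of the Nfkb1 values, and reads from an Nfkb1 intron and from Gm43430 cannot be told apart there. The retained-intron share of Nfkb1 in the alignment-free quantification, 61.5 ± 10.5% (SD, n = 3), was higher than that of 73.2% of the 6192 genes with such an isoform and a mean of at least 1 TPM, whose median was 44.4%. In the alignment-based quantification the share was 70.4 ± 14.1%, above 86.2% of 5738 genes. The median of those genes was 45.7%, with quartiles of 29.3% and 61.8%.

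Nfkb2 (ENSMUSG00000025225.15, chr19:46304320-46312385, plus strand, mm10) was next. It had 150.1 TPM in replicate 1, 244 TPM in replicate 2 and 261 TPM in replicate 3 (218 ± 60, SD, n = 3). In levels relative to the library's median the 3 values were 4.54, 5.70 and 5.47, lowest in replicate 1, called above the bound (limma treat, adjusted p = 2.82e-05). In contrast to Nfkb1, protein-coding isoforms took 80.0 ± 3.2% of its alignment-based TPM and retained-intron isoforms 9.30 ± 1.86%. Alignment-free, coding isoforms took 64.5 ± 11.3%, with 52.5% in replicate 1, and retained-intron isoforms 13.9 ± 2.3%. The processed transcript took 21.6 ± 9.6% there. The coding isoforms differ mainly in where they start. In the alignment-free quantification the downstream start of Nfkb2-202 gave 76.9, 68.4 and 110.1 TPM in replicates 1, 2 and 3, and the upstream starts of Nfkb2-201, Nfkb2-204 and Nfkb2-206 summed to 63.1, 70.6 and 71.4 TPM. There the downstream start was ahead in replicates 1 and 3, and the upstream sum differed by 1.13-fold between libraries. In the alignment-based quantification the downstream start gave 54.0 TPM in replicate 1, 71.2 TPM in replicate 2 and 87.3 TPM in replicate 3. The upstream starts gave a sum of 60.8, 129.9 and 124 TPM in the same order of replicates, a range of 2.14-fold, and were ahead in all 3 libraries. Which start led, and how far the libraries differed, thus depended on the quantification. Of the 3 upstream isoforms, Nfkb2-201 was at 4.95 TPM in replicate 1, against 97.0 and 88.0 TPM in the other two libraries, while Nfkb2-206 was at 47.2 TPM in replicate 1, against 28.6 and 29.9 TPM. Nfkb2-204 had at most 8.57 TPM.

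The isoforms Nfkb2-201, Nfkb2-202 and Nfkb2-204 code for p100 in full over 899 codons. Nfkb2-206 keeps intron 21, of 80 bases, and its reading frame ends inside that intron after 878 codons. Its last exon shares 299 bases with Psd on the opposite strand, which had 54.7, 30.3 and 40.9 TPM in replicates 1, 2 and 3 and was also highest in replicate 1. The bidirectional-promoter transcript AC114539.1 shares 1292 bases with the start of Nfkb2 on the opposite strand and had 12.9, 9.70 and 10.8 TPM. The strand setting of the counting is not given in the sources used here, so reads of these overlaps cannot be assigned with certainty. The retained-intron isoform Nfkb2-207 keeps introns 2 and 12 whole and had 17.0 TPM in replicate 1, 21.7 TPM in replicate 2 and 20.0 TPM in replicate 3. Unlike the retained-intron isoforms of Nfkb1, these introns are short, and both are shown whole from the GENCODE M21 transcript (GRCm38, plus strand) with the terminal GT and AG in capitals. They lie at chr19:46306365-46306485 and chr19:46309075-46309154.
Nfkb2-207 intron 2: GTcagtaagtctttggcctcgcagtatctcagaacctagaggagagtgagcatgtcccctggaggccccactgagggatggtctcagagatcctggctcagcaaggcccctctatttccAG
Nfkb2-207 intron 12: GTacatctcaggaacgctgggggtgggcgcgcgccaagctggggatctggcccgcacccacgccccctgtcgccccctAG
The processed transcript Nfkb2-203 starts inside intron 1 of Nfkb2-202. In replicates 1, 2 and 3 it had 82.9, 22.2 and 59.6 TPM alignment-free and 18.4, 20.9 and 29.6 TPM alignment-based. The other 2 isoforms of the gene had at most 0.01 TPM alignment-based. Of these, Nfkb2-205 had 3.75, 4.67 and 8.32 TPM alignment-free and Nfkb2-208 had 0.

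**Figure D3:**
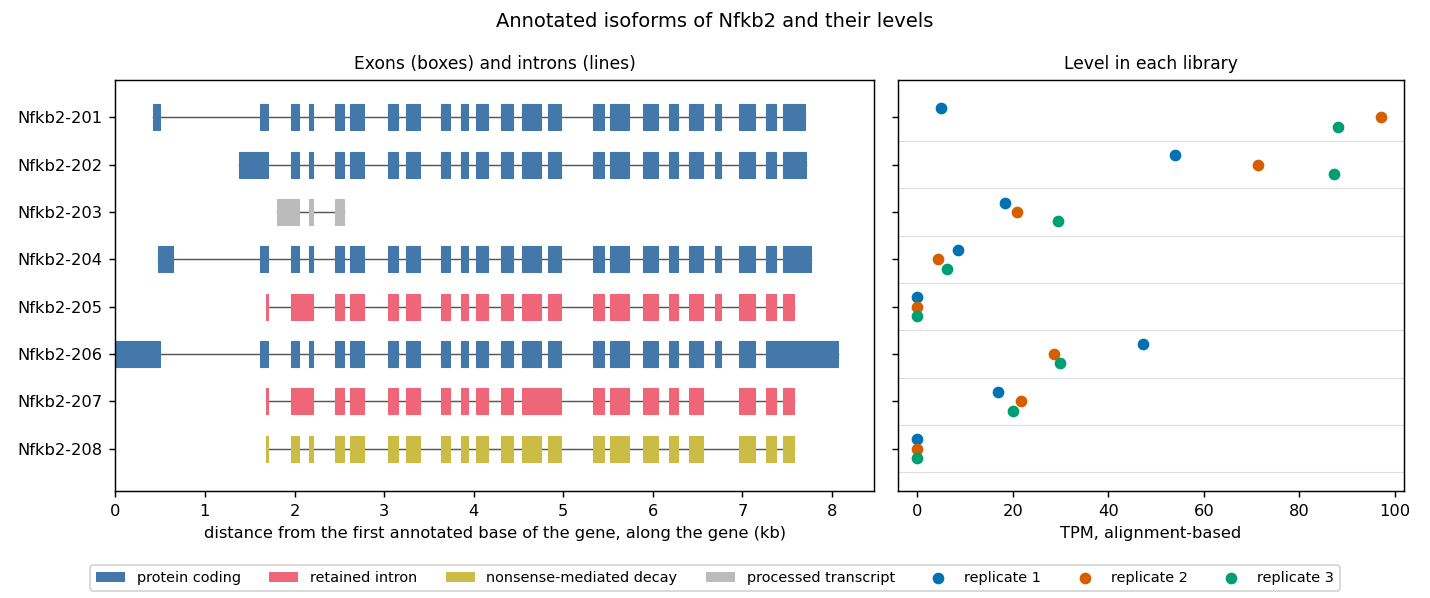
Annotated isoforms of Nfkb2, with exons as boxes coloured by isoform type against the distance in kb along the gene (left), and the alignment-based TPM of each isoform in each of the 3 libraries (right). Nfkb2-201 separates replicate 1 (4.95 TPM) from replicates 2 and 3 (97.0 and 88.0 TPM), while Nfkb2-202 lies between 54.0 and 87.3 TPM in all 3.

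The promoters bear on these start sites, and NF-kB proteins are known to act on the genes of their own family. RefSeq (GRCm38.p6) lists 5 promoter windows for 3 of the 5 genes: 3 for Nfkb2, 1 for Rel and 1 for Rela. The 250 bases before each start were searched on both strands for the kB consensus and for its outline GGGNNNNNCC, of which the consensus is a narrower form, so each consensus match is also an outline match. Over all 32851 windows of that length, 3.9% held the consensus and 45.8% held the outline, and these shares are the background for the matches below. The consensus was found in all 3 Nfkb2 windows and in the Rel window, and not in the Rela window, which held 3 outline matches. A match is a description of letters and not a site shown to be bound. The sites are printed in lower case with the matched letters in capitals and up to 5 bases on each side, on the strand of the gene. Before the start of Nfkb2-201, in a window that lies wholly inside the first exon of Nfkb2-206, lay a pair of overlapping matches 39 and 38 bases before the start (chr19:46304693-46304713) and a further one 11 bases before it (chr19:46304721-46304736). Upstream of Nfkb2-202 lay a match 236 bases before the start (chr19:46305454-46305473), and the window of the third listed start held one that falls inside the first exon of Nfkb2-202 (chr19:46305700-46305719). Upstream of Rel-201, on the minus strand, lay a pair of overlapping matches 92 and 91 bases before the start (chr11:23771046-23771066).
Nfkb2-201 start, overlapping pair: gtcacGGGAATTCCCCccctc
Nfkb2-201 start, nearest match: cgaaaGGGGCTTTCCc
Nfkb2-202 start: cggcaGGAATGTCCCcacaa
Nfkb2, in the first exon of Nfkb2-202: ttttcGGGACTTTCCtaagc
Rel: gcagcGGGAAATCCCCccccc
The windows before Nfkb2-202 (chr19:46305445-46305694) and before Rel-201 (chr11:23770971-23771219, minus strand) are given in full for context, since they lie outside the exons of their genes.
Nfkb2-202 upstream: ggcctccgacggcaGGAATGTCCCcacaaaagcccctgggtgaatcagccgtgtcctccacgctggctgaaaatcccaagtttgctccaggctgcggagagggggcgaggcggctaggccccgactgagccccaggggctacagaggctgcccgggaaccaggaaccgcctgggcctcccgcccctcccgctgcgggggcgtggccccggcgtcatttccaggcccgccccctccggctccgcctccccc
Rel-201 upstream: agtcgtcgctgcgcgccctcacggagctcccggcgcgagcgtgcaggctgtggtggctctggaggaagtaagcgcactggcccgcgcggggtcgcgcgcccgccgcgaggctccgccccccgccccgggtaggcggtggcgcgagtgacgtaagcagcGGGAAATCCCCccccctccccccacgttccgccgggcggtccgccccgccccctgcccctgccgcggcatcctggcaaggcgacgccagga
No entry was listed for Nfkb1 or Relb.

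Relb (ENSMUSG00000002983.17, chr7:19606217-19629438, minus strand, mm10) encodes RelB, the partner of p52 and p100. It had 47.2 TPM in replicate 1, 73.3 TPM in replicate 2 and 74.9 TPM in replicate 3 (65.1 ± 15.5, SD, n = 3). Its levels were 2.89, 3.98 and 3.68, lowest in replicate 1 as those of Nfkb2 were, and called above the bound (limma treat, adjusted p = 0.000197). Protein-coding isoforms took 54.8 ± 7.8% of its alignment-based TPM and retained-intron isoforms 30.2 ± 12.1%, with 43.9% in replicate 1, against 21.2% and 25.6% in replicates 2 and 3. Alignment-free, coding isoforms took 41.8 ± 15.1%, with 24.6% in replicate 1, and retained-intron isoforms 35.2 ± 13.0%. Each of the 3 retained-intron isoforms of Relb holds 966 bases of intron 4 in 1 piece. Nfkb2 stood 1.65, 1.72 and 1.79 log2 units above Relb in the 3 libraries, the most constant of the 10 differences between subunit genes. Which of the full-length Relb isoforms carried the signal depended on the quantification. Relb-202 codes for 558 codons and Relb-201 for 555, because Relb-202 holds an extra exon of 9 bases in intron 2. In the alignment-free quantification Relb-201 had 11.1, 20.2 and 22.8 TPM and Relb-202 0, 6.61 and 10.1 TPM. The alignment-based quantification listed Relb-201 at 0 in all 3 libraries and Relb-202 at 16.4, 37.9 and 40.9 TPM. The same exchange was seen among the retained-intron isoforms, where Relb-205 had 27.6, 6.81 and 12.7 TPM alignment-free and 0.89, 1.20 and 2.55 TPM alignment-based. Relb-206 went the other way, with at most 0.35 TPM alignment-free and 16.2, 10.4 and 12.9 TPM alignment-based. The isoform values of Relb are therefore uncertain, and the sum over the 3 full-length isoforms was 23.9 ± 11.5 TPM alignment-free and 31.9 ± 13.5 TPM alignment-based (SD, n = 3).

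Rel (ENSMUSG00000020275.9, chr11:23736847-23770970, minus strand, mm10) encodes c-Rel, a subunit of myeloid and lymphoid cells that is needed in mouse macrophages for full production of the p40 chain of interleukin 12. It had 67.8 TPM in replicate 1, 18.8 TPM in replicate 2 and 32.4 TPM in replicate 3, a range of 3.61-fold, the widest of the 5 genes. Replicate 1 was the high library for Rel, whereas it held the lowest levels of Nfkb2 and Relb. Its levels were 3.40, 2.07 and 2.49 (2.66 ± 0.68, SD, n = 3), called above the bound (limma treat, adjusted p = 0.0017). Rel has 1 annotated isoform, Rel-201, of 7466 bases in 10 exons, so no retained-intron isoform competes for its reads.

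Rela (ENSMUSG00000024927.8, chr19:5637483-5648130, plus strand, mm10) encodes RelA, also called p65, the main transactivating subunit of the canonical pathway. It had 24.7 TPM in replicate 1, 28.4 TPM in replicate 2 and 33.7 TPM in replicate 3 (28.95 ± 4.56, SD, n = 3), the lowest mean of the 5. The smallest count behind any member was that of Rela in replicate 1, 700 expected counts, whose exact 95% Poisson interval of 649 to 754 counts corresponds to 22.9 to 26.6 TPM and covers counting error only. Its levels were 1.98, 2.65 and 2.55, called above the bound (limma treat, adjusted p = 0.000994). The isoform Rela-201, which codes for p65 in full over 549 codons, had nearly the same TPM in the 3 libraries, at 17.7, 17.1 and 18.6. The library medians were 5.5, 3.7 and 4.93 TPM in replicates 1, 2 and 3, so equal TPM is not an equal level. The retained-intron isoform Rela-203 had 5.76, 5.61 and 8.18 TPM, or 22.4 ± 2.4% of the gene, but only 35 of its 786 bases are intronic. Rela-206, annotated to undergo nonsense-mediated decay, had 1.21, 3.65 and 4.57 TPM. In the alignment-free quantification, short isoforms of Rela took more: Rela-201 had 12.4, 8.98 and 11.9 TPM of a gene sum of 87.0, 45.9 and 75.4 TPM, and Rela-207, a processed transcript of 728 bases, had 14.5, 7.74 and 14.2 TPM.

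**Figure D4:**
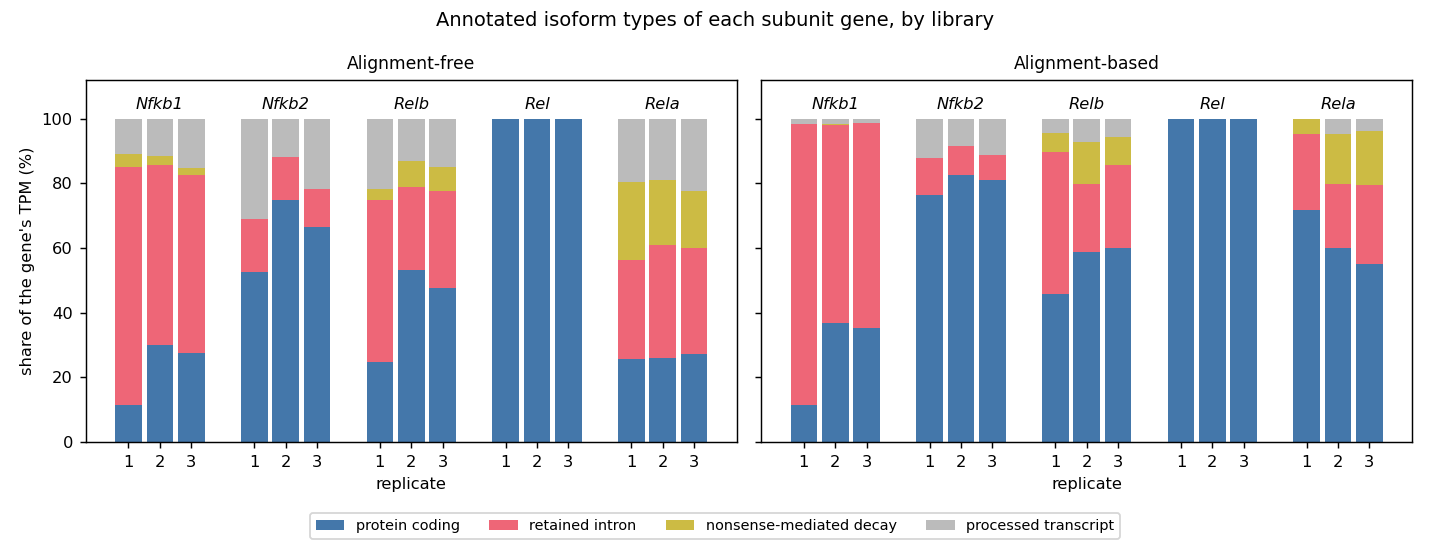
Share of each gene's TPM by annotated isoform type in each library, alignment-free (left) and alignment-based (right), as stacked bars that sum to 100%. Retained-intron isoforms took 55.1% to 73.6% of Nfkb1 alignment-free and 61.4% to 86.6% alignment-based, and in Nfkb1 and Relb that share was highest in replicate 1 in both.

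Across the family, replicate 1 did not move all genes one way. Summed over protein-coding isoforms alone, an alternative chosen after seeing the data, Nfkb2 came first, with 115, 201 and 211 TPM in replicates 1, 2 and 3. Nfkb1 had 49.0, 109 and 135 TPM on the same scale, and Relb had 21.6, 43.0 and 44.8 TPM. These genes were lowest in replicate 1. Rel, at 67.8, 18.8 and 32.4 TPM, was highest in replicate 1, where it was above Nfkb1. Nfkb1 was thus above Rel in 2 of 3 libraries on this scale. Rela had 17.7, 17.1 and 18.6 TPM. Nfkb2 was then 0.91 ± 0.29 log2 units above Nfkb1 (SD, n = 3; higher in 3 of 3 libraries), whereas over all isoforms Nfkb1 was 0.78 ± 0.63 above Nfkb2 (3 of 3 libraries). Of the family's coding TPM, Nfkb2 took 47.3 ± 4.7%, Nfkb1 25.6 ± 6.6% and Rel 12.4 ± 11.0%. All 5 genes were called above the bound on this scale too, which has its own reference median over coding isoforms, beside 21.4% of the 10515 genes tested on it (limma treat, adjusted p from 8.84e-06 for Nfkb2 to 0.000371 for Rel).

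Between the 5 genes, 10 differences of log2(TPM + 1) were taken within libraries. In 8 of the 10 the same gene was higher in all 3 libraries, for which an exact permutation test by sign flips (two-sided) gave p = 0.25, the smallest that 3 libraries allow (0.312 after Benjamini-Hochberg adjustment over the 10). None could therefore pass 0.05. Largest against its spread was that of Nfkb2 over Relb, at 1.72 ± 0.07. Next came both precursor genes over Rela, by 2.84 ± 0.26 for Nfkb2 and 3.62 ± 0.38 for Nfkb1 (SD, n = 3; 3 of 3 libraries each). Relb was above Rela by 0.13 ± 0.22 in the alignment-free quantification, in 2 of 3 libraries, and by 1.12 ± 0.21 in the alignment-based one, in 3 of 3. Nfkb1 and Nfkb2, neighbours in the order, differed by 1.49, 0.29 and 0.56 in replicates 1, 2 and 3, a spread about as large as the mean. The order at the lower end was not settled by these libraries. Relb was above Rel in 2 of 3 libraries (0.86 ± 1.24), and Rel was above Rela in 1 of 3 (0.26 ± 1.04). In the alignment-free quantification Rela was 1.05 ± 0.79 above Rel, in 3 of 3 libraries.

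The spread between libraries was uneven over the family. The SD over 3 libraries of log2 TMM-normalised CPM was 0.13 for Nfkb1, and 9.31% of genes tested had a smaller one. It was 0.45 for Rela, 0.55 for Rel, 0.63 for Relb and 0.73 for Nfkb2, beside a median of 0.40 over all genes tested. This order depended on the scaling. With library size alone the SD was 0.38 for Nfkb1, 0.08 for Rela, 0.16 for Relb, 0.26 for Nfkb2 and 1.04 for Rel, beside a median of 0.56 over all genes, so Nfkb1 was then not the steadiest member. Under TMM without replicate 1 the SDs of the 5 genes were 0.03 to 0.26 and the median of all genes was 0.17, so much of the spread under TMM came with replicate 1. The genes nearest in level over the 3 libraries differed from member to member. They were ranked by the root mean square difference of level, over only 3 libraries, among protein-coding genes. Nearest to Nfkb1 were the splicing factor gene Hnrnpa2b1 (0.05 log2 units), Srrm2, which encodes a spliceosome protein (0.09), and Fyb (0.11), and all 3 had TPM between 299 and 430. Nearest to Nfkb2 were Adam8 (0.14), the autophagy receptor gene Sqstm1 (0.16) and Tnip1 (0.16), which encodes a partner of A20. All 3 were lowest in replicate 1, as was Nfkb2. Nearest to Rel were Arid1a (0.02), a chromatin remodelling subunit, Gbp2 (0.06), a guanylate-binding protein, and Dnaja1 (0.07), a chaperone, all highest in replicate 1 as was Rel. Among those nearest to Rela were Arfgap2 (0.05) and Csrnp1 (0.05), and nearest to Relb were Trpm4 (0.06), Usp19 (0.11) and Dennd4b (0.12).

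Each library was quantified in 2 ways, and the subunit genes differed between them by less than the bound. The difference of levels, alignment-free minus alignment-based, was -0.60 ± 0.05 for Nfkb1, -0.38 ± 0.19 for Nfkb2, -0.35 ± 0.13 for Relb, -0.67 ± 0.14 for Rel and 0.64 ± 0.13 for Rela (SD, n = 3). Each level is relative to its own quantification's median, and the direction was the same in 3 of 3 libraries for every gene. By limma treat on the paired difference, 0 of 5 passed an adjusted p of 0.05 for a difference past 1 log2 unit, and 0 passed an unadjusted p of 0.05. Over all 13427 genes with both values, 1.9% were called higher and 0.633% lower in the alignment-free quantification. Relative to the medians, Rela was the 1 member that was higher there. Its TPM was 87.0, 45.9 and 75.4 alignment-free and 24.7, 28.4 and 33.7 alignment-based, and these ranges did not overlap. Before the medians were subtracted, mean TPM was higher alignment-free in all 5 genes. For Nfkb1 it was 376 against 369 TPM, and for Rel 40.3 against 39.6 TPM. Within libraries, both genes were higher alignment-free in replicate 1 alone. Nfkb1 had 532, 221 and 373 TPM alignment-free in replicates 1, 2 and 3, against 424, 298 and 384 TPM. Rel had 78.4, 14.1 and 28.5 TPM, against 67.8, 18.8 and 32.4 TPM. Nfkb2 and Relb were lower alignment-free in replicate 2, and Rela was higher in every library.

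The partners, inhibitors and modifiers of NF-kB were covered by 8 further lists with 59 genes, of which 57 were over the count minimum. Of these, 34 were called above and 2 below (limma treat), beside 21.3% of all genes in each direction. The 6 IkB and nuclear IkB genes were all above, with a median level of 3.73, and ran from Nfkbia, which encodes IkBα (291, 251 and 357 TPM; level 5.72 ± 0.21), to Nfkbib, which encodes IkBβ (18.9, 23.4 and 32.8 TPM; level 2.17 ± 0.48). Of the 3 IKK genes, 2 were above. Ikbkb, the catalytic kinase IKKβ, was highest at a level of 4.26 ± 0.12, and Ikbkg, the scaffold NEMO, was lowest at 0.90 ± 0.47 with no call. Of 5 regulators of NIK, the kinase of the non-canonical pathway, 3 were above. Birc3, which encodes the ubiquitin ligase cIAP2, had 221, 58.3 and 102 TPM in replicates 1, 2 and 3 (level 4.29 ± 0.73), and Map3k14, which encodes NIK itself, was at 0.45 ± 0.07 with no call.

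Among 9 genes whose products bind or process p105 and p100, 4 were above, beside 21.3% of all genes tested. Their median level was 1.15. Tnip2, which encodes a protein that binds p105 together with the kinase TPL2, was highest at 3.34 ± 0.06, and Skp1a, a subunit of the ubiquitin ligase that recognises both precursors, was lowest at -0.82 ± 0.08. Of 8 ubiquitin brakes, 5 were above. Tnip3 was highest of all genes named here, with 1653, 240.1 and 630 TPM in replicates 1, 2 and 3 (level 6.80 ± 1.16), and the deubiquitinase gene Otud1 was lowest at -1.19 ± 0.26 with no call. Of 14 modifiers and coactivators of the subunits, 6 were above, 2 below and 6 neither, beside 21.3% of all genes in each direction. Their median level was 0.66. The 2 below were Prkaca, the catalytic subunit of protein kinase A (0.90, 0.81 and 1.08 TPM; level -1.55 ± 0.20), and Commd1, which promotes the breakdown of RelA (2.47, 0.24 and 0.19 TPM; level -1.72 ± 0.73). Without replicate 2, or without replicate 3, 0 of the 57 genes were called below.

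The NFAT genes, relatives with a Rel homology region, were set beside the subunits. Of 4 over the count minimum 1 was above, Nfat5, at 4.83 ± 0.04, beside 21.3% of all genes tested. Nfatc2 was lowest at 0.20 ± 0.17, while Nfatc4 had at most 0.01 TPM. Of the interferon regulatory factors, the other main family of regulators downstream of TLR4, 7 of 8 over the minimum were above, beside the same 21.3%. Irf1 was highest at 5.79 ± 0.33 (466, 224 and 289 TPM), and Irf4 was lowest at -1.27 ± 0.45 with no call. The median level of the interferon regulatory factors was 2.62, against 3.52 for the NF-kB subunits, with no test of that difference.

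**Figure D5:**
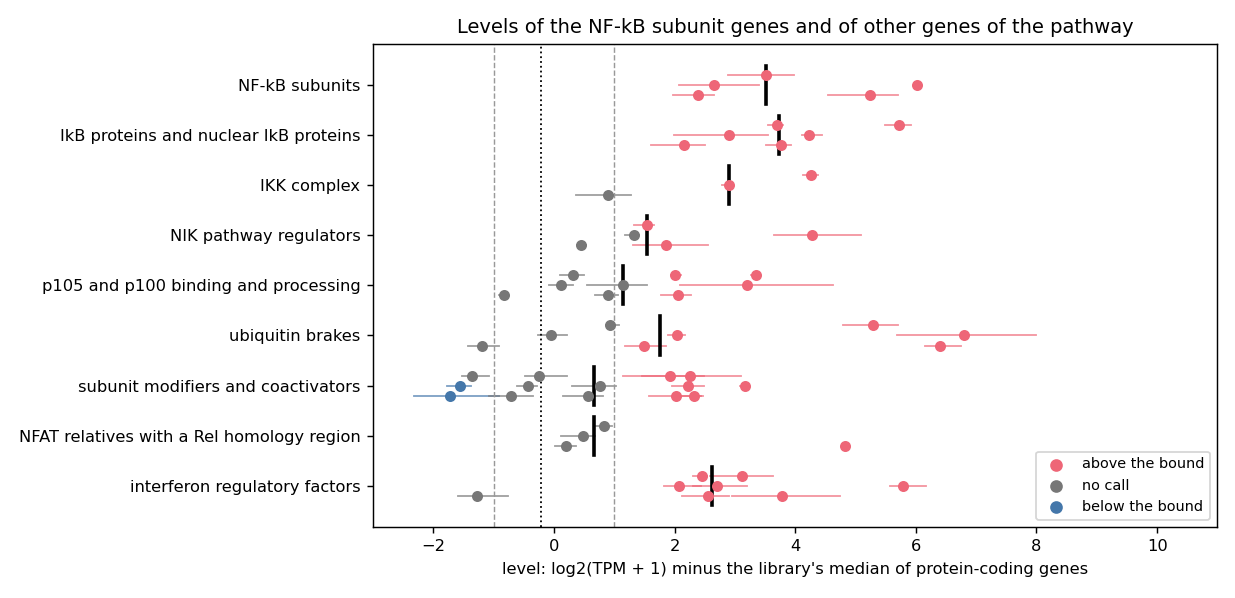
Level of each gene over the count minimum, as the mean of 3 libraries with a line from the lowest to the highest library, for the NF-kB subunits and the 8 other lists, coloured by call. Black bars mark the list medians (3.52 for the subunits, 3.73 for the IkB genes), dashed lines the bounds of 1 and -1, and the dotted line the median of all genes tested (-0.21).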

How the data were processed

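Chromatin-fraction total RNA-seq of 3 biological replicates was used. Expected counts and TPM per gene and per transcript were deposited by the authors from an alignment to mm10 with the GENCODE M21 annotation, with the column names that RSEM writes, per the file headers (alignment-based). A second deposited transcript table gives estimated counts and TPM with the column names that kallisto writes, per the file headers (alignment-free), and its transcripts were summed to genes. Deposited TPM is scaled over all entries of a file. Aligner, versions, strand setting and multi-mapping rules were not given in the sources used here. The deposited posterior mean TPM served as an alternative, and the deposited scores, posterior standard deviations of counts per the file headers, were not used.

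Genes whose expected count averaged 10 or more were tested with limma 3.58.1 (R 4.3.3) treat, intercept only, on log2(TPM + 1) minus the library's median over 10530 protein-coding genes, with a bound of 1 log2 unit and Benjamini-Hochberg adjustment at 0.05 over 13434 genes. The pseudocount of 1 understates differences between low genes. TMM factors came from edgeR 4.0.16 and size factors from DESeq2 1.42.0, on expected counts rounded to whole numbers, and log2 CPM used a prior count of 2. Scripts were tested on simulated data. Isoform types and coordinates came from GENCODE M21, promoter windows from RefSeq. Levels, isoform shares, spread, look-alikes and lists are descriptions beside the background over all genes.

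The members and lists were chosen with earlier results of these data known. Genes named from the other lists are the highest and lowest member over the count minimum and each member called below. The genes nearest to each subunit gene are the 3 protein-coding genes with the smallest root mean square difference of level. Isoforms named have a mean share of at least 10% in either quantification, or were chosen after their values were seen. A few genes that these rules name are not reported here. With 1 group there is no comparison between conditions.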

Additional observations from a re-analysis of the deposited data

How the results depend on the processing

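The 5 subunit genes were called above the bound under every alternative run except a minimum mean count of 100. There 3 of 5 were (limma treat, beside 17.8% of 7399 genes): Rel was at 1.59 (adjusted p = 0.11) and Rela at 1.32 (adjusted p = 0.218), because the reference median then comes from more abundant genes and lowers every level by 1.07. Without a minimum every level was 0.95 higher, and with all genes as the reference 0.21 higher. At a minimum of 100, 17 other pathway genes were above, against 34, and over all genes 1317 were above and 785 below. Without a minimum 4928 were above and 5539 below of 22549 genes. With protein-coding isoforms alone 739 were below. Leaving out 1 library at a time, 1571 to 3342 genes were below and 2448 to 3050 above. The planned edgeR glmTreat test takes no design with an intercept alone, so a quasi-likelihood F test against the same bound was formed from the edgeR fit. It called 5 of 5 subunit genes, with levels from 2.66 for Rela to 6.29 for Nfkb1.

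Of the 10 differences between subunit genes, 1 changed direction in each alternative. Rel minus Rela was -1.05 alignment-free, and Nfkb1 minus Nfkb2 was -0.91 with protein-coding isoforms alone. The retained-intron share of Rela was 32.7% alignment-free and 6.50% of its expected counts, against 22.4% of its TPM. The median SD over the 5 genes was 0.26 with library size alone, beside 0.56 over all genes, against 0.55 beside 0.40 under TMM. It was 0.22 to 0.76 leaving out 1 library at a time, with the lowest value without replicate 1. The causes of these other changes were not tested. No paired analysis was possible because the series has 1 group, with no other group to pair replicates across. Differences between genes and between quantifications were taken within libraries. Depth was at least 700 expected counts for every member in every library. In TPM, exact Poisson intervals for Rel were 66.2 to 69.4, 18.2 to 19.4 and 31.5 to 33.3 in replicates 1, 2 and 3. These ranges did not overlap, so counting error was small beside the spread of Rel. The SD was only 0.02 for levels of Nfkb1 and 0.08 for log2 CPM of Rela with library size alone. Counting error cannot be called small beside these SDs. With 3 libraries, no groups were large enough for a test of outlying samples.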
